A study of Mus musculus with 24 samples.

Results

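The genes described here are 9 genes of glycogen synthesis and breakdown in mouse liver, Gys2, Gyg, Gbe1, Ugp2, Pygl, Phka2, Ppp1r3b, Ppp1r3c and Ppp1r3g, out of 37074 gene names on the array. They were taken by name and not by a rule on their values, though with earlier results of these data known. Each was represented by the probe with the highest mean log2 median signal over the 24 arrays. The 9 names were carried by 15 probes, of which Phka2 had 4, Gbe1 had 3, Gyg had 2 and the others 1 each. All 15 were well above background on all 24 arrays, so no member was lost to the filter on dim probes, which kept 21372 genes.

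Liver stores glucose as glycogen after a meal and releases it between meals. Glycogenin primes the polymer, UDP-glucose pyrophosphorylase supplies UDP-glucose, glycogen synthase extends the chains and the branching enzyme adds branch points, while glycogen phosphorylase, switched on by phosphorylase kinase, removes glucose from the chain ends. Insulin favours synthesis in large part by dephosphorylation, through protein phosphatase 1 that is held on the glycogen particle by targeting subunits of the PPP1R3 family, and glucagon favours breakdown by phosphorylation.

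Livers came from male mice aged 12 weeks, with 6 mice in each of 4 groups, and each array held RNA of 1 mouse. LWT mice carried floxed alleles of Pik3ca, the gene of the PI3-kinase catalytic subunit p110α, without Cre, and were littermates of LKO mice, which carried the same floxed alleles with albumin-Cre, a transgene of C57BL/6J mice whose albumin promoter directs deletion to hepatocytes. LWT_Fed and LKO_Fed mice ate freely, LWT_Fasted and LKO_Fasted mice had no food for 24 h, and all were killed at ZT16, in the dark phase. The comparisons ask how the glycogen genes respond to fasting in each genotype, how LKO differs from LWT in each feeding state, and whether the fasting response differs between genotypes. The samples were whole liver, so fewer cells of a type and less RNA per cell cannot be told apart.

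The share of spots well above background ran from 54.7% to 63.0% over the arrays, and the 7 hepatocyte markers examined were detected on all 24. The Pik3ca probe was not lower in arrays labelled LKO, with a log2 difference from LWT of 0.58 in fed liver (adjusted p = 0.00147) and -0.02 in fasted liver (adjusted p = 0.93). Where that probe lies relative to the deleted part is not known here, so it does not check the labels, and genotype differences below are between arrays labelled LKO and LWT. LKO_Fasted replicates 1 and 2 stood apart from the other 4 of their group on the second principal component. They were at 35.1 and 31.3 against 1.41 to 2.92. LKO_Fed arrays were at 19.1 to 29.0 on this component and LWT arrays at -27.0 to -15.2. Replicates 1 and 2 thus lay on the side of LKO_Fed, and the other 4 between LKO_Fed and LWT. Which of the LKO_Fasted arrays are atypical was not tested. Results of single genes below that passed and rest on LKO_Fasted are also given without replicates 1 and 2. The summed signal of 5 pancreatic markers was lower in LKO_Fasted (6776 to 9172) than in any other group (11050 to 18620), but Cpa1, Prss2 and Pnlip were well above background on no array. The 5 adipose markers summed to at most 5611 in LWT_Fasted and at most 1332 elsewhere, and the part of either list in the results was not tested.

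The probes of the 4 members whose fed and fasted arrays did not overlap in either genotype are shown first, since each value below is the signal of one such oligonucleotide. The files place the 60-base probes on the mm9 assembly, at chr13:36061999-36062058 on the plus strand for Ppp1r3g (NM_029628), at chr12:71291855-71291914 on the minus strand for Pygl (NM_133198), at chr16:70569840-70569899 on the plus strand for Gbe1 (NM_028803) and at chr11:21221975-21222034 on the minus strand for Ugp2 (NM_139297). The first 30 bases of each are given 5′ to 3′.
Ppp1r3g probe: agattcgatgtattttcttccgtgattgga
Pygl probe: cttccctgattctgtttttgtcattgaata
Gbe1 probe: tgtccgtatactgtttcagtagacgctgat
Ugp2 probe: ggatcactgaaataagcactttcagataca
The other 5 probes lie at chr6:142371157-142371216 (minus strand) for Gys2, chr3:20022033-20022092 (minus) for Gyg, chrX:157029014-157029073 (plus) for Phka2, chr8:36451115-36451174 (plus) for Ppp1r3b and chr19:36806457-36806516 (minus) for Ppp1r3c. The files name a transcript for each of them, and the exon or untranslated region that holds a probe was not analysed here.

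Promoters are shown for the phosphorylase gene and for the 2 targeting-subunit genes with the largest changes. RefSeq promoter sequences of assembly GRCm38.p6 matched 7 of the 9 genes, with 2 promoters for Ugp2, and were searched on both strands over the 250 bases before the start site. The capitals mark the short cAMP response element (CRE) motif TGACG, or its complement CGTCA, in Pygl and Ppp1r3g, and the E-box CACGTG in Ppp1r3c.
Pygl, chr12:70227684-70227933, minus strand: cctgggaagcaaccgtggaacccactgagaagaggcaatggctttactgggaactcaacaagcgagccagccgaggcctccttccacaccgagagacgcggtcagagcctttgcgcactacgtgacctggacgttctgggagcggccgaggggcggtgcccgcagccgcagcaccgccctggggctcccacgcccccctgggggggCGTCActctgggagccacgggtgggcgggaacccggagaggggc
Ppp1r3g, chr13:35967656-35967905, plus strand: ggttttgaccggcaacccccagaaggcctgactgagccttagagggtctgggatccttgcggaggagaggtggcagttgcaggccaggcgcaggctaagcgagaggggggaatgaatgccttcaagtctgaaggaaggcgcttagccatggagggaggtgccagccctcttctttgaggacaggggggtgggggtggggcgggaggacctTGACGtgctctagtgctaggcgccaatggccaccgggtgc
Ppp1r3c, chr19:36736605-36736854, minus strand: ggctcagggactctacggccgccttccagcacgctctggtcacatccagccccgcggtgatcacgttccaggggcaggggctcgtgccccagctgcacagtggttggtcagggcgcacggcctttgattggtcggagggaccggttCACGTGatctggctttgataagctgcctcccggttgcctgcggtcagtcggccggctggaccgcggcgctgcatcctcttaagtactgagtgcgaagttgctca
TGACG was held by 17.8% of all 32851 promoters of that length and CACGTG by 6.02%, so neither match is rare. TGACGTCA, whose letters contain TGACG and which 1.55% of promoters held, the FOXO element GTAAACA (3.17%) and the TATA box TATAAA (12.4%) were in none of the 8 promoters. The forkhead letters TGTTTNC (17.8% of promoters) were found in 1 promoter, of Ugp2, and the glucocorticoid receptor motif TGTTCT (16.1%) in 1, of Phka2. Such matches describe letters in these windows and not binding.

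Most of the 9 genes were lower after fasting, and 1 was higher. In LWT liver 6 of 9 passed an adjusted p of 0.05 in limma, beside 41.6% of all genes. Gyg, Gbe1, Ugp2, Pygl and Phka2 fell, as did 21.7% of genes, and Ppp1r3g rose, as did 19.9%. In LKO liver 7 of 9 passed, beside 41.5% of all genes. Gbe1, Ugp2, Pygl, Phka2, Ppp1r3b and Ppp1r3c fell (21.9% of genes) and Ppp1r3g rose (19.7%). The calls of Phka2 and Ppp1r3b in LKO were lost without LKO_Fasted replicates 1 and 2. The median log2 fold change of the 9 genes was -0.40 in LWT and -0.44 in LKO, against -0.0080 and -0.021 over all genes. Changes over 1.5-fold were found for 4 members in LWT and 5 in LKO, beside 10% and 12.8% of genes. The fed and fasted arrays did not overlap for Gbe1, Ugp2, Pygl and Ppp1r3g in either genotype, beside 21.6% of genes in LWT and 22.1% in LKO.

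Between genotypes, 3 of 9 members passed in fed liver, beside 16.4% of all genes. These were Gyg, Gbe1 and Pygl, all lower in LKO, as were 7.61% of genes, while no member was higher (8.81% of genes). None of the 3 exceeded 1.5-fold, beside 3.85% of genes. In fasted liver 6 of 9 passed, beside 20.6% of genes. Gbe1, Ugp2, Pygl, Ppp1r3b and Ppp1r3c were lower in LKO (10.6% of genes) and Ppp1r3g was higher (9.99%), a call lost without LKO_Fasted replicates 1 and 2. Of these 6, 4 exceeded 1.5-fold, beside 4.06% of genes. LKO and LWT arrays did not overlap for Gbe1 and Pygl in both feeding states, beside 8.65% of genes in fed and 8.68% in fasted liver. The median log2 difference of the 9 genes was -0.11 in fed and -0.47 in fasted liver. Each genotype comparison shares arrays with both fasting comparisons, so the sets of values are not independent. All 23 results that passed, the interaction included, had the same sign on each of the 3 slides. They were selected for passing on these same arrays, so this describes them and is no separate support.

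**Figure D1:**
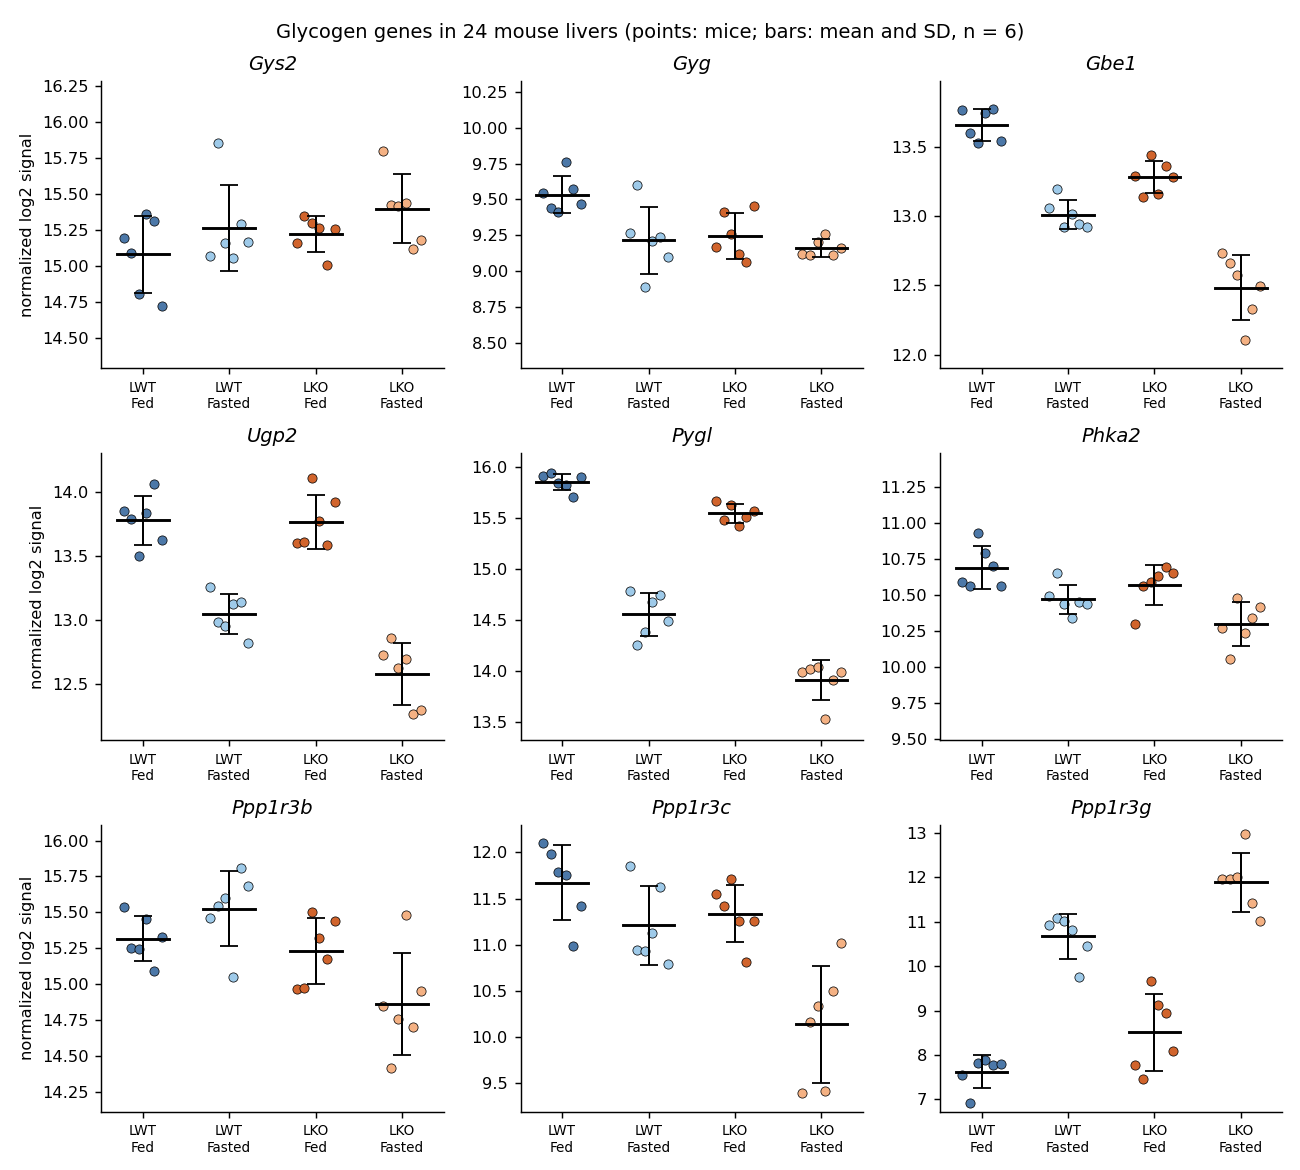
Normalized log2 signal (vertical axis, a separate range for each gene) of the 9 genes in 24 livers, by group; each point is 1 mouse, the thick bar is the group mean and the error bar its SD (n = 6). The 4 groups of Pygl do not overlap, and all fasted points of Ppp1r3g lie above all fed ones.

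Levels below are normalized log2 signals, and log2 fold changes come from the weighted limma model with a slide term, so they can depart from the difference of the group means. Levels of different probes are not compared.

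Among the genes of synthesis, Gys2, the liver isoform of glycogen synthase, did not pass in any comparison. Its signal ranged from 14.72 to 15.36 (median 15.14) in LWT_Fed, 15.05 to 15.85 (median 15.16) in LWT_Fasted, 15.01 to 15.35 (median 15.26) in LKO_Fed and 15.12 to 15.80 (median 15.42) in LKO_Fasted. All 4 groups overlapped. The log2 change with fasting was 0.04 in LWT (95% CI -0.20 to 0.29) and 0.16 in LKO (95% CI -0.11 to 0.43), intervals that leave out a change of 1.5-fold. The change in LKO was 0.05 without LKO_Fasted replicates 1 and 2, and the difference from LWT in fasted liver 0.09. LKO minus LWT was 0.08 in fed liver (95% CI -0.17 to 0.33) and 0.20 in fasted liver (95% CI -0.07 to 0.46).

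Gyg, which encodes glycogenin, the protein primer of the glycogen chain, was highest in LWT_Fed. Its signal there was 9.41 to 9.76 (median 9.51), against 8.89 to 9.60 (median 9.22) in LWT_Fasted, 9.06 to 9.45 (median 9.21) in LKO_Fed and 9.11 to 9.26 (median 9.14) in LKO_Fasted. LWT_Fed overlapped with LWT_Fasted and LKO_Fed but lay wholly above LKO_Fasted. With fasting Gyg fell in LWT to 0.758 of its fed level (log2 fold change -0.40, SE 0.0788, adjusted p = 0.000296). It was also lower in LKO_Fed than in LWT_Fed (log2 fold change -0.32, SE 0.0806, adjusted p = 0.00847). The change with fasting in LKO was -0.07 (95% CI -0.25 to 0.11) and the genotype difference in fasted liver 0.0041 (95% CI -0.17 to 0.18), and without LKO_Fasted replicates 1 and 2 they were -0.04 and 0.04. The second Gyg probe passed in the same 2 comparisons, at -0.31 (adjusted p = 0.00279) and -0.34 (adjusted p = 0.00601). For the main probe the interaction of 0.33 did not pass (95% CI 0.08 to 0.57, adjusted p = 0.0912). It passed only when probes had to be well above background on all arrays (adjusted p = 0.0494).

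Gbe1, the branching enzyme, was lower in fasted than in fed liver and lower in LKO than in LWT in each feeding state. Its signal was 13.53 to 13.78 (median 13.67) in LWT_Fed, 13.14 to 13.44 (median 13.29) in LKO_Fed, 12.92 to 13.19 (median 12.98) in LWT_Fasted and 12.10 to 12.73 (median 12.53) in LKO_Fasted. Only LKO_Fed and LWT_Fasted, neighbours in this order, overlapped. Fasting took Gbe1 to 0.611 of the fed level in LWT (log2 fold change -0.71, SE 0.0777, adjusted p = 2.18e-07) and to 0.585 in LKO (-0.77, SE 0.0859, adjusted p = 2.3e-07). LKO livers held 0.754 of the LWT level when fed (log2 difference -0.41, SE 0.0795, adjusted p = 0.00142) and 0.723 when fasted (-0.47, SE 0.0844, adjusted p = 0.000454). Without LKO_Fasted replicates 1 and 2 the change in LKO was -0.87 (adjusted p = 2.02e-07) and the difference in fasted liver -0.57 (adjusted p = 0.000234). The falls with fasting in the 2 genotypes were not found to differ, with an interaction of -0.06 (95% CI -0.30 to 0.18), or -0.17 (adjusted p = 0.408) without both replicates. A second probe of the gene gave -0.73, -0.73, -0.47 and -0.47 for the same 4 comparisons, all of which passed. The third probe, which the files name for another transcript, lies at chr16:70361835-70361864 for its first 30 bases. It fell by 1.02 and 1.09 on the log2 scale with fasting. It was lower in LKO_Fasted by -0.54 (adjusted p = 0.0428), but did not pass in fed liver (-0.47, adjusted p = 0.0723).

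Ugp2, which makes the UDP-glucose used by glycogen synthase, fell with fasting in both genotypes. It ranged from 13.50 to 14.06 (median 13.81) in LWT_Fed and 13.58 to 14.10 (median 13.69) in LKO_Fed, and from 12.82 to 13.25 (median 13.06) in LWT_Fasted and 12.26 to 12.86 (median 12.66) in LKO_Fasted. Fed arrays lay wholly above fasted arrays, while the genotypes overlapped in both states. The fasted level was 0.572 of the fed level in LWT (log2 fold change -0.81, SE 0.113, adjusted p = 6.12e-06) and 0.426 in LKO (-1.23, SE 0.125, adjusted p = 5.86e-08). LKO minus LWT was -0.05 in fed liver (95% CI -0.29 to 0.19, adjusted p = 0.812) and -0.48 in fasted liver (SE 0.123, adjusted p = 0.00803). Without LKO_Fasted replicates 1 and 2 the change in LKO was -1.36 (adjusted p = 1.46e-07) and the difference in fasted liver -0.60 (adjusted p = 0.00425). The difference between the 2 fasting changes was -0.43 (adjusted p = 0.128), and -0.56 (adjusted p = 0.0495) without both replicates, whose values of 12.72 and 12.86 were the highest of the group.

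On the breakdown side, Pygl, the liver glycogen phosphorylase, separated all 4 groups. Its signal was 15.71 to 15.94 (median 15.87) in LWT_Fed, 15.42 to 15.67 (median 15.54) in LKO_Fed, 14.26 to 14.78 (median 14.58) in LWT_Fasted and 13.53 to 14.05 (median 13.99) in LKO_Fasted. No neighbours in this order overlapped. Fasting lowered Pygl to 0.419 of the fed level in LWT (log2 fold change -1.26, SE 0.0716, adjusted p = 1.98e-11) and to 0.329 in LKO (-1.61, SE 0.0791, adjusted p = 1.5e-12). Within single slides the fall ran from -1.40 to -1.14 in LWT and from -1.75 to -1.54 in LKO. LKO was lower than LWT by a log2 difference of -0.29 in fed liver (SE 0.0732, adjusted p = 0.00979) and -0.64 in fasted liver (SE 0.0777, adjusted p = 8.43e-06). The fall in LKO was -1.65 (adjusted p = 3.48e-11) and the difference in fasted liver -0.69 (adjusted p = 3.62e-05) without LKO_Fasted replicates 1 and 2.

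Pygl was the 1 member of 9 to pass the test of the interaction, beside 8% of all genes, of which 3.87% had a lower and 4.13% a higher value. No member passed with an interaction of over 1.5-fold, beside 3.1% of genes. The fall of Pygl with fasting was steeper in LKO than in LWT by -0.35 on the log2 scale (SE 0.107, adjusted p = 0.0487), and the value within single slides ran from -0.39 to -0.27. The call was lost in 19 of the 24 fits that left out 1 array, those without any 1 of 5 LKO_Fasted, 5 LKO_Fed, 4 LWT_Fasted or 5 LWT_Fed arrays, with a difference between -0.42 and -0.30 in all 24. It was kept without LKO_Fasted replicates 1 and 2 (-0.40, adjusted p = 0.0308).

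Phka2, the liver regulatory subunit of phosphorylase kinase, fell by 0.22 on the log2 scale with fasting in LWT (SE 0.0761, adjusted p = 0.023) and likewise by 0.22 in LKO (SE 0.0841, adjusted p = 0.0384). Its signal was 10.56 to 10.93 (median 10.65) in LWT_Fed, 10.34 to 10.65 (median 10.44) in LWT_Fasted, 10.30 to 10.69 (median 10.61) in LKO_Fed and 10.05 to 10.48 (median 10.31) in LKO_Fasted. The fed and fasted arrays overlapped in both genotypes. Of its 3 other probes, none passed in LWT, where they gave -0.08, -0.08 and -0.01. In LKO 1 of them passed (-0.25, adjusted p = 0.0457), the only other probe that the files name for the same transcript. The call in LKO was lost without LKO_Fasted replicates 1 and 2 (-0.14, adjusted p = 0.205), and on leaving out LKO_Fasted replicate 1 or 2, LKO_Fed replicate 3, 4, 5 or 6 or LWT_Fed replicate 5 alone (-0.22 to -0.16, adjusted p from 0.0571 to 0.118). The call in LWT was lost without LWT_Fed replicate 4 or 5 or LWT_Fasted replicate 4 or 6 (-0.22 to -0.18, adjusted p from 0.0564 to 0.0737). LKO and LWT were not found to differ, with log2 differences of -0.11 in both states (95% CI -0.27 to 0.05 fed and -0.28 to 0.06 fasted), the latter -0.03 without LKO_Fasted replicates 1 and 2.

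**Figure D2:**
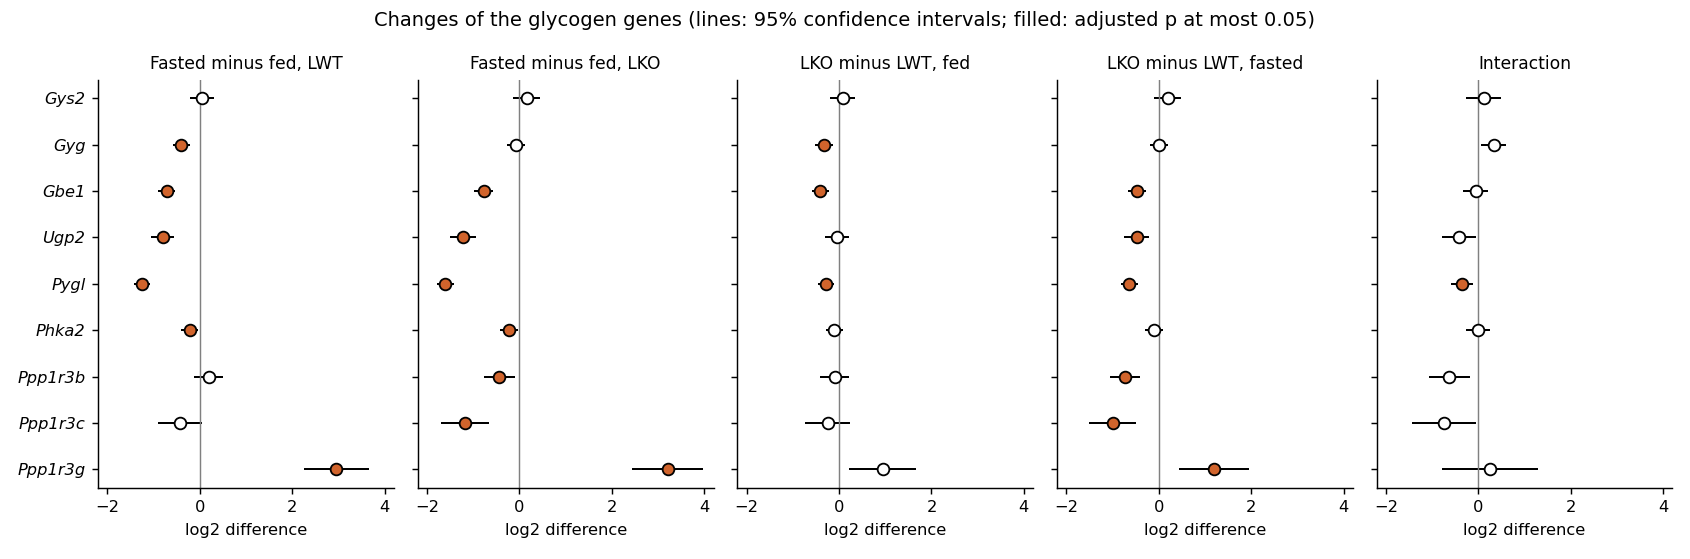
Log2 differences of the 9 genes (horizontal axis) in the 5 comparisons, with points for the limma estimate, lines for its 95% confidence interval and filled points where the adjusted p was at most 0.05. Ppp1r3g lies at 2.96 and 3.21 in the fasting panels, and Pygl is the only filled point under the interaction.

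The subunits that bring protein phosphatase 1 to glycogen moved in different directions. Ppp1r3g, a targeting subunit, was the 1 member that rose with fasting. Its signal was 6.92 to 7.89 (median 7.79) in LWT_Fed and 7.45 to 9.66 (median 8.51) in LKO_Fed, against 9.75 to 11.08 (median 10.87) in LWT_Fasted and 11.01 to 12.98 (median 11.96) in LKO_Fasted. Every fasted array was above every fed array, though LWT_Fasted and LKO_Fed came close, at 9.75 and 9.66, and the genotypes overlapped within each state.

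With fasting Ppp1r3g rose 7.76-fold in LWT (log2 fold change 2.96, SE 0.328, adjusted p = 2.71e-07) and 9.23-fold in LKO (3.21, SE 0.363, adjusted p = 2.88e-07). The interaction was 0.25, with a 95% CI from -0.76 to 1.27 that leaves room for differences of over 1.5-fold in either direction. The rise in LKO was 3.07 (adjusted p = 7.94e-06) and the interaction 0.12 (adjusted p = 0.924) without LKO_Fasted replicates 1 and 2. Within slides the rise in LKO varied from 2.08 to 4.70. In fasted liver LKO exceeded LWT 2.29-fold (log2 difference 1.19, SE 0.356, adjusted p = 0.0207). That call was lost without LKO_Fasted replicates 1 and 2 (1.06, adjusted p = 0.0896), and also on leaving out LKO_Fasted replicate 2 (adjusted p = 0.0537), LKO_Fasted replicate 3 (adjusted p = 0.0545) or LWT_Fasted replicate 5 (0.93, adjusted p = 0.0638). In fed liver the difference of 0.94 (95% CI 0.25 to 1.64, adjusted p = 0.0602) missed the threshold, which it passed without LKO_Fed replicate 1 (1.15, adjusted p = 0.0296), LKO_Fed replicate 2 (1.14, adjusted p = 0.021) or LWT_Fasted replicate 5 (0.94, adjusted p = 0.0404). LKO_Fed was the more spread of the fed groups, with replicates 3, 4 and 5 at 9.66, 9.13 and 8.94 and the other 3 between 7.45 and 8.08.

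Ppp1r3b, the targeting subunit best known from liver, was on average lowest in LKO_Fasted. It ranged from 15.09 to 15.53 (median 15.29) in LWT_Fed, 15.05 to 15.81 (median 15.57) in LWT_Fasted, 14.96 to 15.50 (median 15.25) in LKO_Fed and 14.42 to 15.48 (median 14.80) in LKO_Fasted. All groups overlapped, since LKO_Fasted replicate 4 at 15.48 lay within the range of each. LKO_Fasted held 0.604 of the LWT_Fasted level (log2 difference -0.73, SE 0.149, adjusted p = 0.00145), and -0.65 remained without replicates 1 and 2 (adjusted p = 0.0114). With fasting Ppp1r3b fell in LKO (-0.44, SE 0.152, adjusted p = 0.0245), a call lost without those replicates (-0.36, adjusted p = 0.103) and without LKO_Fasted replicate 1 or 2 or LKO_Fed replicate 3 or 6 alone (adjusted p from 0.0505 to 0.0683). In LWT the change was 0.19 (95% CI -0.09 to 0.48), and it passed without LWT_Fasted replicate 4 (0.35, adjusted p = 0.0163). The difference between the 2 fasting changes was -0.63 (SE 0.205, adjusted p = 0.0632), or -0.55 (adjusted p = 0.122) without LKO_Fasted replicates 1 and 2, and it passed without LWT_Fasted replicate 4 (-0.78, adjusted p = 0.00609), LKO_Fasted replicate 4, LKO_Fed replicate 1 or 2 or LWT_Fed replicate 1 (adjusted p from 0.0268 to 0.0469). In fed liver the genotypes differed by -0.10 (95% CI -0.39 to 0.20).

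Ppp1r3c, the subunit also called PTG, was likewise on average lowest in LKO_Fasted. It ranged from 10.99 to 12.10 (median 11.77) in LWT_Fed, 10.79 to 11.86 (median 11.04) in LWT_Fasted, 10.82 to 11.72 (median 11.34) in LKO_Fed and 9.39 to 11.02 (median 10.25) in LKO_Fasted. Neighbouring groups overlapped throughout, while 5 of the 6 LKO_Fasted arrays lay under every array of the other groups. Its level fell with fasting in LKO to 0.445 of the fed level (log2 fold change -1.17, SE 0.239, adjusted p = 0.000431) and was 0.503 of LWT in fasted liver (-0.99, SE 0.235, adjusted p = 0.00455). Without LKO_Fasted replicates 1 and 2 these became -0.98 (adjusted p = 0.00288) and -0.81 (adjusted p = 0.0246). In LWT the fasting change of -0.42 did not pass (95% CI -0.87 to 0.03, adjusted p = 0.125), nor did the genotype difference in fed liver of -0.25 (95% CI -0.70 to 0.21) or the interaction of -0.75 (95% CI -1.41 to -0.08, adjusted p = 0.166), which was -0.55 (adjusted p = 0.288) without both replicates.

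The other genes of the pathway were taken from a list of 28, of which 26 passed the filter. Ppp1r3a and Ppp1r3f, further targeting subunits, were well above background on 0 and 1 arrays. With fasting in LWT 17 of the 26 passed, 7 higher and 10 lower, beside 41.6% of all genes, and in LKO 13 passed, 5 higher and 8 lower, beside 41.5%. LKO against LWT gave 7 in fed liver, 2 higher and 5 lower, beside 16.4% of all genes, and 9 in fasted liver, 1 higher and 8 lower, beside 20.6%. Without LKO_Fasted replicates 1 and 2, an alternative chosen for these genes after seeing the data, 12 passed with fasting in LKO and 7 between genotypes in fasted liver. The share of all genes in that fit is not given here, so the change in these counts cannot be set against it. The median log2 fold change of the 26 was -0.041, -0.095, -0.067 and -0.065 in these 4 comparisons, against -0.0080, -0.021, -0.014 and -0.0041 over all genes. The test of the interaction was passed by 3 of the 26, 1 higher and 2 lower, beside 8% of all genes.

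Slc2a2, the liver glucose transporter, fell with fasting (log2 fold change -1.04 in LWT and -1.41 in LKO) and was lower in LKO_Fasted than in LWT_Fasted (-0.59, adjusted p = 0.00741). Its latter 2 values without LKO_Fasted replicates 1 and 2 were -1.51 (adjusted p = 5.94e-07) and -0.69 (adjusted p = 0.00755).

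At the release end of the pathway, G6pc, the catalytic subunit of glucose 6-phosphatase, rose with fasting in LWT (0.68, SE 0.164, adjusted p = 0.00192) and in LKO (0.60, SE 0.181, adjusted p = 0.0112, and 0.72, adjusted p = 0.00937, without LKO_Fasted replicates 1 and 2). It was higher in LKO than in LWT when fed (0.57, adjusted p = 0.0249). The difference when fasted was 0.48 (adjusted p = 0.0599), or 0.60 (adjusted p = 0.0506) without LKO_Fasted replicates 1 and 2. The fasting changes of G6pc in the 2 genotypes were not found to differ (interaction -0.08, adjusted p = 0.878). The interaction was 0.04 (adjusted p = 0.952) without both replicates. Slc37a4, the glucose 6-phosphate carrier of the endoplasmic reticulum, had a lower level in fasted than in fed liver, by a log2 difference of -0.24 in LWT (adjusted p = 0.035) and of -0.68 in LKO mice (adjusted p = 7.99e-06). It was lower in LKO_Fasted than in LWT_Fasted (-0.60, adjusted p = 0.000145), and its interaction passed (-0.44, adjusted p = 0.0446). Its last 3 values without LKO_Fasted replicates 1 and 2 were -0.67, -0.59 and -0.43, all of which passed.

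Gaa, the lysosomal glucosidase that degrades glycogen, rose with fasting in LWT (0.51, SE 0.0625, adjusted p = 9.72e-07) and in LKO (0.79, SE 0.0691, adjusted p = 6.93e-09). The difference between these changes did not pass (0.28, adjusted p = 0.0746), though it did without LKO_Fasted replicates 1 and 2 (0.33, adjusted p = 0.04), where the rise in LKO was 0.84 (adjusted p = 4.94e-08). In fed liver Nhlrc1, the ubiquitin ligase malin, and Ppp1r3e, another targeting subunit, were lower in LKO (-0.49, adjusted p = 0.0196, and -0.26, adjusted p = 0.0422). The gene the files call Pgm1 also passed the test of the interaction (0.35, adjusted p = 0.0164, and 0.37 without LKO_Fasted replicates 1 and 2, adjusted p = 0.0179). RefSeq now lists its transcript NM_025700 as Pgm2. Its probe was dim, with group means between 6.29 and 6.56, though well above background on all 24 arrays.

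**Figure D3:**
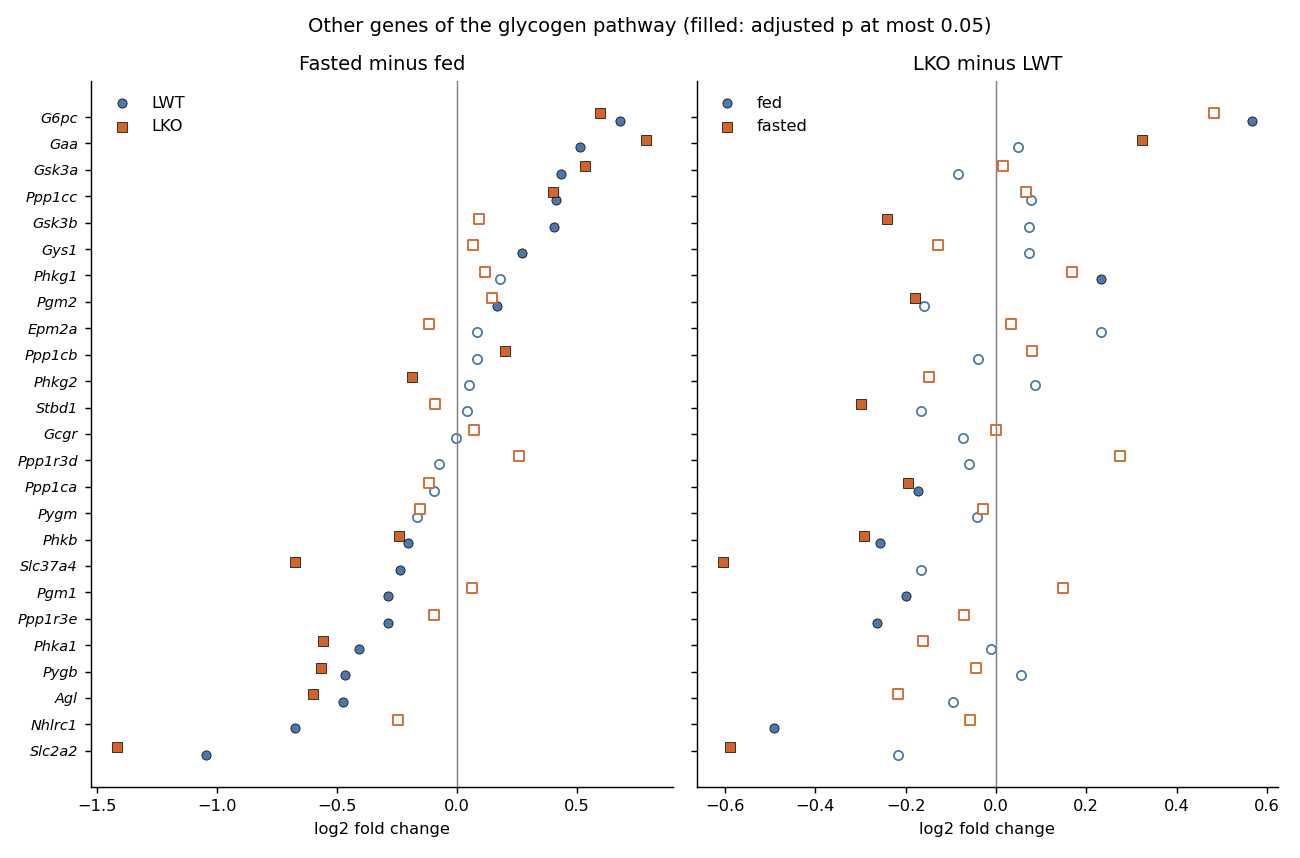
Log2 fold changes (horizontal axis) of 25 of the 26 other pathway genes with fasting in LWT (circles) and LKO (squares), left, and between genotypes in fed (circles) and fasted (squares) liver, right; filled symbols had an adjusted p of at most 0.05. Slc2a2 stands at -1.41 in LKO on the left and Slc37a4 at -0.60 in fasted liver on the right.

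The genes whose pattern was most like that of a member were listed by Pearson r over the 24 arrays, among 18390 genes detected on every array. The arrays fall into 4 groups, so r reflects the group means as well as the spread within them. Thrsp, a gene of the lipogenic response to feeding, was closest to Pygl (r = 0.980), followed by Ttc7 and Hcn3 (r = 0.980 and 0.978). Svip stood closest to Gbe1, followed by Khk, the ketohexokinase of fructose metabolism, both at 0.951. Ilvbl was closest to Ppp1r3g (0.970) and Nit2 to Ugp2 (0.957). The best match of Ppp1r3c was Prss36 (0.890). Those of Phka2, Gyg, Ppp1r3b and Gys2 were lower still, with Rmdn2 at 0.859, Icam2 at 0.838, Upp2 at 0.829 and D130061D10Rik at 0.785.

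After group means were removed, most correlations between members across the 24 arrays were weak. Of the 36 pairs of members 24 had a positive r, with a median of 0.106, and 2 exceeded 0.5, namely Pygl with Ppp1r3c (0.62) and Gys2 with Gyg (0.61). The lowest was -0.43, for Ppp1r3c with Ppp1r3g. These values are a description over arrays that share slides and a common normalization.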

How the data were processed

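The authors hybridised Cy3-labelled liver RNA of 24 mice to 1-colour arrays (Agilent SurePrint G3) and used Feature Extraction 10.10.1.1, as the submitters' processing notes state. Per the file headers, the values are median and mean spot intensity, background intensity and a processed signal, with probe positions on mm9. The deposited series matrix holds log2 values that the authors filtered, corrected for washing bath and quantile normalized. It was used only as an alternative and followed the order of the median signal on every array (lowest Spearman rho 0.999996).

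The median signal was log2 transformed, spots of a probe were averaged and outlier spots were left out. Probes well above background on at least 5 of 6 arrays of a group (32197 of 56605) were quantile normalized and fitted with limma 3.58.1 in R 4.3.3 (lmFit, arrayWeights, eBayes), with group means and slide, which stood for the bath. On each slide (3 in all) every group had 2 arrays. The Benjamini-Hochberg adjustment of the 2-sided p-values ran over every probe kept, and a gene passed at an adjusted p of at most 0.05. The number of arrays limits the precision. The model was also run on simulated data with independent noise, the same spread on every array and no slide effect. That run does not check how the model handles slides or arrays that stand apart.

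The members and lists were chosen with earlier results of these data known. For each member the text names the gene of highest r, with further matches for Pygl and Gbe1. It also names the 9 members, Pik3ca and the 3 pathway genes with the largest change among those that passed in each comparison. A gene that meets this rule is not reported here. Ppp1r3a and Ppp1r3f are named for their lack of signal. The alternatives were other scaling, background, filters, weights, slide terms, samples, probes and call rules.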

Additional observations from a re-analysis of the deposited data

Results flagged for a closer look

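In 4 of the 36 sets of 6 arrays (9 genes in 4 groups) 1 array lay far from the others, where chance gives such a gap in about 1 of 20 sets. The gap to the nearest array, as a share of the range of the group, exceeded Dixon's 95% critical value for 6 values. Gys2 in LWT_Fasted replicate 2 was at 15.85, with the other arrays between 15.05 and 15.29 (ratio 0.705). Pygl in LKO_Fasted replicate 4 was at 13.53, with the others between 13.91 and 14.05 (ratio 0.739). That array was also the lowest of its group for Gbe1 (12.10) and the highest for Ppp1r3b (15.48) and Ppp1r3g (12.98). Phka2 in LKO_Fed replicate 1 was at 10.30, with the others between 10.56 and 10.69 (ratio 0.665). Ppp1r3g in LWT_Fed replicate 2 was at 6.92, with the others between 7.55 and 7.89 (ratio 0.648). The array weights of the model ran from 0.32 to 1.74. These 4 arrays had weights of 0.441, 0.355, 1.25 and 1.30, in the order given.

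The fasting change of Pygl differed between genotypes by a log2 difference of -0.35 in the test of the interaction (adjusted p = 0.0487 in limma), with a mean of 15.85 in LWT_Fed, 14.56 in LWT_Fasted, 15.55 in LKO_Fed and 13.92 in LKO_Fasted. That test was passed by 1 of the 9 members, beside 8% of all genes. The call was lost in 19 of the 24 fits that left out 1 array and in 5 of 11 other alternatives.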

How the results depend on the processing

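Most results kept their direction and their side of the threshold. Over the fits that left out 1 array, the number of members that passed ran from 5 to 6 for fasting in LWT, 5 to 7 for fasting in LKO, 3 to 4 for genotype in fed liver, 5 to 6 for genotype in fasted liver and 0 to 1 for the interaction. The fit of all arrays gave 6, 7, 3, 6 and 1, beside 41.6%, 41.5%, 16.4%, 20.6% and 8% of all genes. The shares of all genes in the fits without 1 array are not given here. The count of 1 for the interaction became 0 with normexp background correction, without a filter on dim probes, without array weights or with a minimum fold of 1.5, became 2 with the series matrix values and without LKO_Fasted replicates 1 and 2, and became 3 when probes had to be well above background on all arrays. For genotype in fed liver the count of 3, beside 16.4% of all genes, became 0 with a minimum fold of 1.5 (3.85%). It became 4, with Ppp1r3g added, under 6 alternatives, beside 14.1% to 20.9% of genes. The replicate numbers did not pair the samples (36 pairs with r from -0.18 to 0.28, of which 4 exceeded 0.1), and a fit with the replicate number as a block gave the same counts of 6, 7, 3, 6 and 1. The adjusted p of the Pygl interaction was 0.0561 with normexp, 0.123 without the filter, 0.0606 without a slide term and 0.0916 without array weights. The Ppp1r3g genotype difference in fed liver passed under 6 of 12 alternatives, at 0.0442 with the processed signal, 0.0321 with detection on all arrays, 0.0367 with the series matrix, 0.0339 without a slide term or with slide as a random block and 0.0401 with the compared groups alone. The Ppp1r3b interaction passed at 0.03 with detection on all arrays, 0.0425 with the series matrix and 0.0426 without a slide term or with slide as a random block, and under both slide settings it was the 1 member that passed, in place of Pygl. Its fall in LKO had 0.0564 with median centring. The fall of Phka2 in LKO had 0.104 with the processed signal, and that in LWT 0.0582 without the filter.

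Changes of sign were found only for values that had not passed. The Gyg genotype difference in fasted liver of 0.0041 became -0.016 with the processed signal, -0.014 with median centring, -0.020 without the filter, -0.017 without a slide term or with slide as a random block, -0.055 without array weights, -0.013 with the compared groups alone, -0.0059 with the replicate block and -0.080 for its other probe. The Phka2 interaction of -0.0005 became 0.043 with the processed signal, 0.0073 with normexp, 0.047 with median centring, 0.022 with the replicate block and 0.084 without LKO_Fasted replicates 1 and 2. The Gys2 interaction became -0.010 without array weights. The other Phka2 probes gave 0.0016, 0.34 and 0.11 for genotype in fed liver, and 1 of them gave 0.11 in fasted liver. On leaving out 1 array, signs also turned for Gys2 with fasting in LWT (-0.059 to 0.13) and between genotypes in fed liver (-0.021 to 0.16), Ugp2 between genotypes in fed liver (-0.14 to 0.023), Gyg between genotypes in fasted liver (-0.063 to 0.052), and the interactions of Gbe1 (-0.12 to 0.0005), Phka2 (-0.083 to 0.065) and Ppp1r3g (-0.0029 to 0.50). The causes were not tested. In all, leaving out 1 array put 9 gene results newly past the threshold, took 37 below it and turned the sign of 24, and the other alternatives 12, 19 and 19.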
